A study of Drosophila melanogaster with 6 samples.

Results

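The chorion gene cluster of chromosome arm 3L holds Cp18, Cp15, Cp19 and Cp16, 4 neighbouring genes for proteins of the eggshell. Its replication was examined in the female Drosophila melanogaster line Kc, which was derived from embryos of genotype se/e. The members were every window lying wholly within 3L 8650001 to 8800000, given as in the files and counted from 1, with sequence names as in genome Release 5. This stretch of 150 kb held 57 of the 55900 windows per library. A 10 kb window began every 2.5 kb, so neighbours shared reads, and 15 of the 57 cover the stretch without sharing any. The 300 kb on each side, from 8350001 to 8650000 and from 8800001 to 9100000, held 117 windows each, and 6 more windows crossed an edge of the region.

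The sample titles call all cells WT, and all carried the same genotype. All had been given BrdU, an analogue of thymidine, at 50 µg/ml for 1 h. Sorting by DNA content gave 3 gates of S phase (Early S, then Mid S, then Late S) with 2 libraries each. DNA that had taken up BrdU was recovered with an antibody and sequenced, and each window has a value in RPKM, its reads scaled to window length and to the reads of the library. A value mixes all cells of a gate, so less label per cell and fewer labelled cells cannot be told apart. The libraries held 1384200 to 2936097 reads, and their median window had 5.71 to 7.60 RPKM.

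Chorion proteins are made by the ovarian follicle cells that surround the egg. Before they are made, follicle cells copy the chorion loci repeatedly from origins within the clusters while replication elsewhere in their genome has largely stopped, a textbook case of developmental gene amplification. On this arm amplification depends on a control element beside Cp18 (ACE3, also listed as a synonym of Cp18) and on an origin near it, where the origin recognition complex binds. Kc cells are a cultured embryonic line and not follicle cells. In the RefSeq gene table, built on Release 6, Cp18 (CG6517), Cp15 (CG6519), Cp19 (CG6524) and Cp16 (CG6533) follow each other on 3L with no other listed gene between them. CG43965 precedes Cp18 and Prm follows Cp16. Prm encodes paramyosin, a muscle thick filament protein. Release 6 positions cannot be set on the windows, so which of the 57 windows hold the 4 genes was not determined.

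Relative to the reads of each library, the chorion region held the most label in Early S. The Early S libraries averaged 14.9 and 17.3 RPKM over the 15 windows that share no reads, the Mid S libraries 4.33 and 4.85, and the Late S libraries 1.71 and 2.11. No library of one gate overlapped those of another. These values rest on 6548 and 4916 reads in Early S, against 1820 and 1443 in Mid S, with 475 and 438 in Late S. On the log2 scale Early S exceeded Late S by 3.08 ± 0.267, or 8.46-fold (error from the SDs of both gates, n = 2 each). Early S exceeded Mid S by 1.81 ± 0.194 and Mid S exceeded Late S by 1.27 ± 0.246. Permuting the gate labels in all 90 ways (exact permutation test of the order early, mid, late, two-sided) gave p 0.0222, the smallest it can give, and an adjusted p of 0.0222 over 3 tests.

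**Figure D1:**
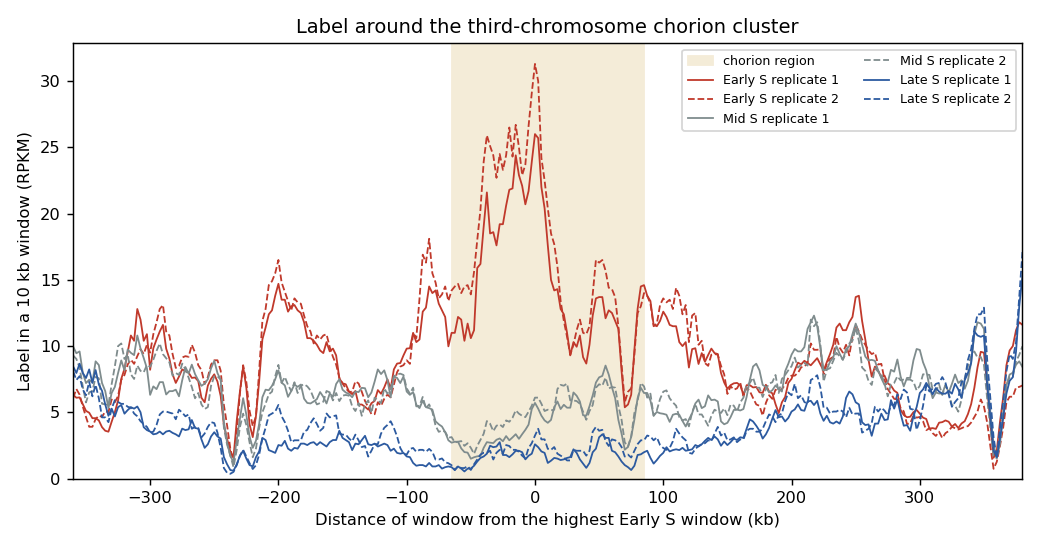
Label in RPKM (vertical axis) in each 10 kb window against its distance in kb from the window with the highest Early S value, for the 6 libraries (solid, replicate 1; dashed, replicate 2), with the chorion region shaded. Both Early S libraries are highest at 0 kb, with 26.0 and 31.3 RPKM, while Mid S stays at or below 8.53 RPKM and Late S at or below 3.90 RPKM in the region.

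The early excess held window by window. All 57 windows were called with Early S above Late S (limma, adjusted p from 1.45e-08 to 2.44e-05), against 37.6% of the 53434 windows tested. All 57 were also called with Early S above Mid S (limma, adjusted p at most 0.0192), against 20.5% of windows tested. The differences ran from 2.06 to 4.16 with a median of 3.14 for Early S minus Late S, and from 0.72 to 3.04 with a median of 2.01 for Early S minus Mid S. The medians over all windows tested were -0.23 and -0.36. Neighbouring windows share reads, so the 57 calls are not independent of each other. They were 15 of 15 in both comparisons when only windows that share no reads were fitted.

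Mid S and Late S were set apart less evenly. Mid S was called higher than Late S in 54 of 57 windows, against 38.7% of windows tested, with a median difference of 1.24 (limma). The 3 others, at 8665001, 8667501 and 8675001, had differences of 0.56, 0.41 and 0.55 (limma, adjusted p 0.0672, 0.198 and 0.0558). Leaving out 1 library gave a median difference of 1.02 (without Late S replicate 1) to 1.47 (without Late S replicate 2). Without Mid S replicate 2 it was 1.19. Both Early S libraries lay above both Mid S libraries in 57 of 57 windows, against 29.9% of windows tested, and above both Late S libraries in 57 of 57, against 41.3%. Both Mid S libraries lay above both Late S libraries in 56 of 57 windows, against 47.8%, so the full order without overlap was seen in 56 of 57, against 27.8%. The exception was the window at 8667501, where Mid S had 1.71 and 2.93 RPKM and Late S had 1.56 and 1.81.

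The local Early S peak lay at 8710001 to 8720000, 60 kb from the start of the first window of the region. The Early S libraries had 26.0 and 31.3 RPKM there, from 764 and 593 reads, the Mid S libraries 5.71 and 6.11, and the Late S libraries 2.59 and 3.25. The lower Early S value was thus more than 4 times the higher Mid S value. Early S exceeded Late S by 3.28 ± 0.174 (SE) on the log2 scale and Mid S by 2.27 ± 0.174 (limma, adjusted p 1.45e-08 and 6.91e-06). The authors' combined Early S file holds the read-weighted mean of the 2 libraries, so its peak was bound to follow theirs. Each Early S library alone and running means over 3 or 5 windows put the peak in the same window. Exact 95% Poisson intervals of its values, which cover counting error only, were 24.2 to 27.9 RPKM in replicate 1 and 28.9 to 34.0 RPKM in replicate 2. In each Early S library 3 windows of the region reached the lower bound, and all of these lay between 8695001 and 8722500. These windows span 27.5 kb. This span is not a confidence interval for the summit, since it leaves out the error of the other windows and all spread beyond counting. The intervals of the replicates did not overlap each other.

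The peak was asymmetric. Early S stayed at or above 75% of its peak mean, 21.5 RPKM, over 37.5 kb from 8687501 to 8725000, most of it before the peak. It stayed at or above 50%, 14.3 RPKM, over 72.5 kb from 8665001 to 8737500. A shoulder lay before the summit, with 21.6 and 25.9 RPKM in the Early S libraries at 8672501. After the summit the Early S values reached 9.30 and 9.35 RPKM at 8737501, only 27.5 kb further on. In that window Mid S had 5.35 and 5.90 RPKM and Late S had 1.62 and 1.37. The order of the gates was the same there, with Early S minus Mid S at 0.73, against 2.27 at the summit, and Mid S minus Late S at 1.89, against 1.02 at the summit. The difference between these windows was not tested. A second, lower maximum followed at 8762501, with 13.7 and 16.5 RPKM in Early S.

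Among windows of X, 2L, 3L, 3R and 4, the Early S mean of the summit, 28.7 ± 3.75 RPKM (SD, n = 2), was exceeded by 125 of 39376. The summit was picked as the highest of the region's 57 windows, so its rank is high in part by that choice. The summed RPKM of the 3 gates there, 37.5, was exceeded by 1592 windows, or 4.04%. This sum adds values scaled to each library's own reads and is not a copy number. No library of unlabelled DNA was used here, so the part of local copy number and of mappability in these levels was not tested.

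The early bias was largest elsewhere than the Early S level. Early S minus Late S reached its highest value of the region at 8655001 to 8665000, 55 kb before the summit, at 4.16 ± 0.306 (SE, limma, adjusted p 3.1e-08). Replicate 1 alone placed this maximum in the same window and replicate 2 alone at 8660001, 50 kb before the summit. In the window at 8655001 the Early S libraries had 10.4 and 14.5 RPKM and the Mid S libraries 2.00 and 2.47. The Late S libraries had 0.539 and 0.795 there, or 10 reads in Late S replicate 1. Early S was therefore well below its summit there, and Late S was at its lowest mean of the region. Early S minus Mid S was highest at 8665001 to 8675000, at 3.04 ± 0.257 (SE, limma, adjusted p 8.25e-06), where the Early S libraries had 15.9 and 18.0 RPKM, the Mid S libraries 1.68 and 2.47, and the Late S libraries 1.29 and 1.44. The difference between these windows and the summit was not tested.

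Both maxima stood near the top of the windows of X, 2L, 3L, 3R and 4, as a description. Each was the highest of the region's 57 windows, ranked against single windows, so its rank is high in part by that choice. Arm 2R was left out of this and the other rankings. Only 5 of the 39376 windows of X, 2L, 3L, 3R and 4 had a higher Early S minus Late S difference than 4.16, namely the window at 8647501 of 3L across the edge of the region (4.22), 3 windows of X at 3230001 to 3245000 and the X window at 6735001 (4.45). For Early S minus Mid S a single window of X, at 3322501, was higher than 3.04, at 3.16.

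**Figure D2:**
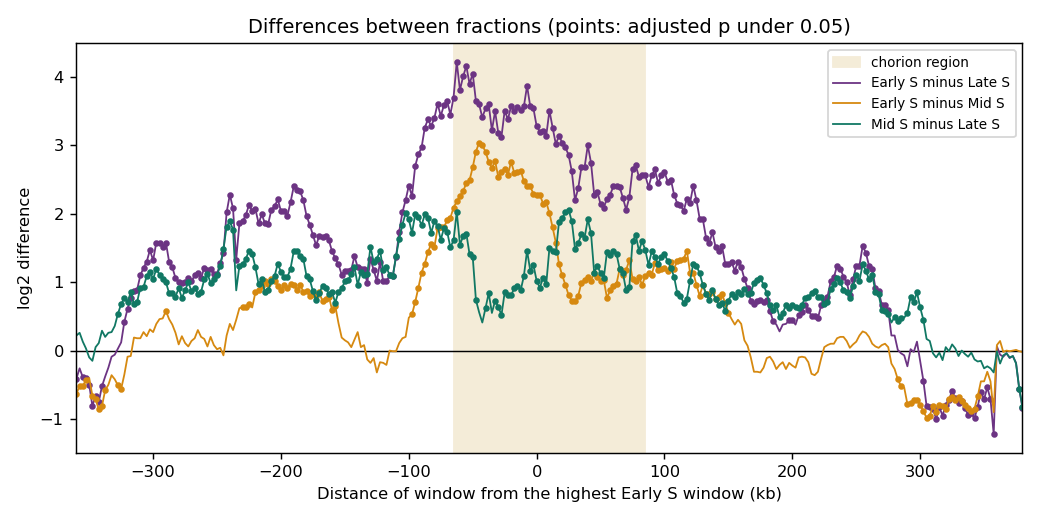
Fitted log2 differences between gates (vertical axis) against distance in kb from the highest Early S window, with the chorion region shaded and points where the adjusted p was under 0.05. Early S minus Late S reaches 4.16 in the region 55 kb before the summit, and Early S minus Mid S reaches 3.04 at 45 kb before it.

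The split of summed RPKM shifted toward Mid S along the region. In the first 50 kb, Early S held 80.4% of the summed RPKM, Mid S 12.8% and Late S 6.74%. In the next 50 kb, which hold the summit, the shares were 71.5%, 20.7% and 7.84%, and in the last 50 kb 59.8%, 28.9% and 11.3%. The Mid S libraries averaged 2.48 and 3.35 RPKM in the first 50 kb, 5.00 and 5.80 in the next and 5.50 and 5.41 in the last. Mid S was thus higher toward the end of the region, where Early S was lower, with 10.6 and 12.0 RPKM in the last 50 kb, against 16.2 and 20.3 in the first. Late S moved less, with 1.48 and 1.59 RPKM in the first 50 kb, 1.87 and 2.23 in the next and 1.77 and 2.51 in the last. No test was run on these parts of the region, which were compared after the profile was seen.

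The windows also differed in how much label they held in all gates together. Over the 15 windows that share no reads, the highest Early S mean was 5.15 times the lowest, the highest Mid S mean 3.86 times and the highest Late S mean 4.80 times. Pearson's r between replicates across these 15 windows, on the log2 scale, was 0.976 for Early S, 0.936 for Mid S and 0.786 for Late S, the gate with the fewest reads. The lowest values of Early S in the region lay at 8780001, at 5.38 and 5.76 RPKM, where the Mid S libraries had 2.18 and 2.73 RPKM and the Late S libraries 1.02 and 1.66. All gates were low together there, at a summed 9.36 RPKM, and the Early S share of 59.5% stayed close to the 58.1% at 8762501 and the 61.0% at 8795001.

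**Figure D3:**
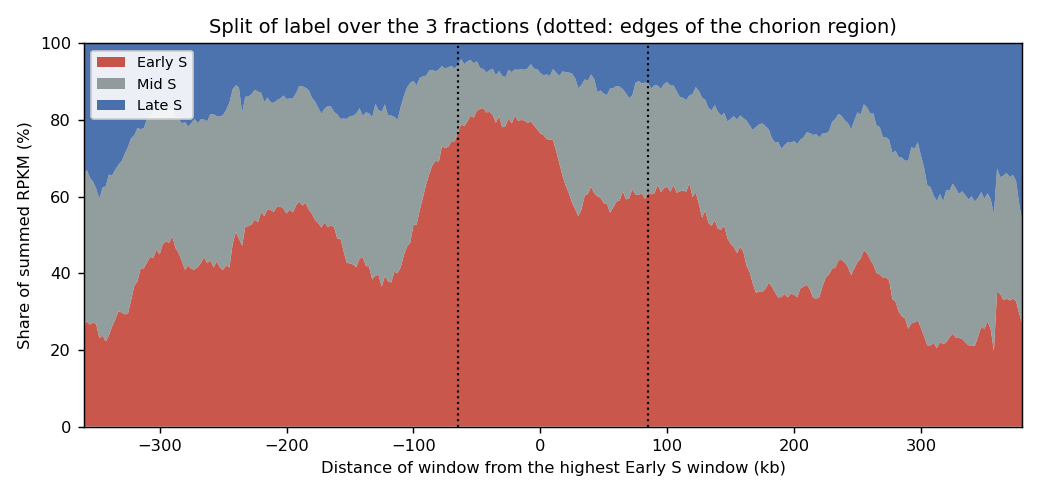
Share of the summed RPKM of the 3 gates (vertical axis, %) held by Early S, Mid S and Late S in each window, against distance in kb from the highest Early S window, with dotted lines at the edges of the chorion region. The Early S share is 83.1% at 45 kb before the summit, 76.5% at the summit and 54.9% at 30 kb after it.

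The region was set against the 300 kb on each side to ask whether its early label is local. Its Early S mean was 16.1 ± 1.73 RPKM, against 8.73 ± 0.391 before it and 7.80 ± 0.316 after it (SD, n = 2 each). Its Late S mean was 1.91 ± 0.286 RPKM, against 3.45 ± 0.361 before it and 5.29 ± 0.391 after it. In Mid S the region was also lower, at 4.59 ± 0.371 RPKM, against 6.57 ± 0.156 before it and 7.29 ± 0.212 after it. The region was therefore above both sides in Early S and below both sides in Mid S and Late S, in both libraries of each gate.

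The ratio of the region to the side before it was 1.76 and 1.92 for the Early S libraries, 0.648 and 0.752 for the Mid S libraries, and 0.533 and 0.569 for the Late S libraries. Early S minus Late S of this ratio was 1.74 ± 0.112 on the log2 scale. Against the side after it, the ratios were 1.85 and 2.28 for the Early S libraries, 0.582 and 0.680 for the Mid S libraries, and 0.340 and 0.379 for the Late S libraries, a difference of 2.52 ± 0.240. Both followed the order early, mid, late without overlap, each with an adjusted p of 0.0222 over 3 tests (exact permutation). Against only the nearest 150 kb the differences were 1.10 before the region (adjusted p 0.0444, exact permutation) and 1.81 after it (adjusted p 0.0333, exact permutation). Against the nearest 150 kb before the region, the ratios of the Mid S and Late S libraries overlapped, so the full order did not hold there. The nearest 50 kb were themselves early, with Early S minus Late S of 2.68 before the region and 2.27 after it, against 3.58, 3.19 and 2.40 in the 50 kb parts of the region.

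**Figure D4:**
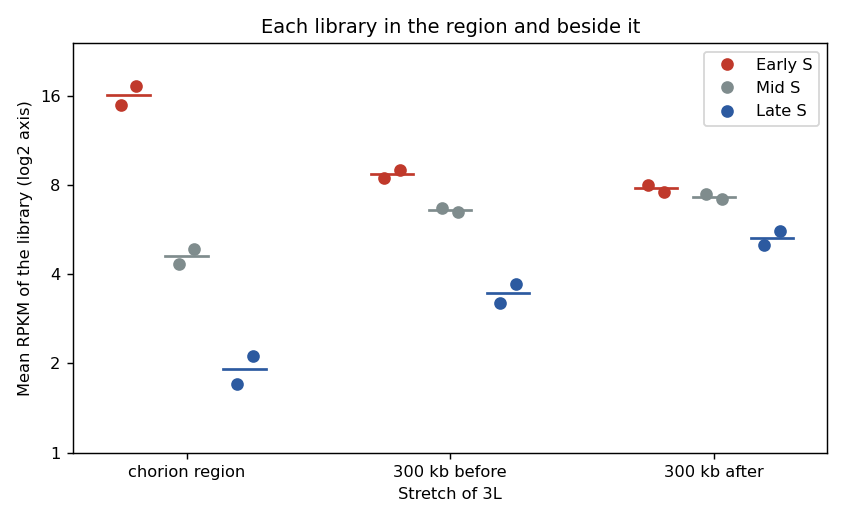
Mean RPKM of each library (log2 axis; 1 point per library, line at the mean of 2) over the windows that share no reads in the chorion region, the 300 kb before it and the 300 kb after it. Early S lies at 14.9 and 17.3 RPKM in the region and Late S at 1.71 and 2.11, with smaller gaps between gates on both sides.

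The early domain ran beyond the region on both sides. Of the 117 windows before it, 102 were called with Early S above Late S and 8 with Early S below it, and of the 117 after it 70 were called above and 25 below (limma), against 37.6% of windows tested called above and 44.2% called below. Calls of Early S above Late S were unbroken from the summit to 325 kb before it, where the window at 8385001 had a difference of 0.12 (limma, adjusted p 0.548). After the summit they were unbroken for 187.5 kb, up to the window at 8897501, with 0.38 (limma, adjusted p 0.0790). The difference first reached 0 or less at 8380001 before the summit and at 8995001 after it. The unbroken excess over Mid S was narrower. Calls of Early S above Mid S broke off at 8610001, 100 kb before the summit, and at 8862501, 152.5 kb after it. Such calls returned further before the summit, among them every window with a start from 8490001 to 8552501. Early S was called above Mid S in 42 of the 117 windows before the region and below it in 11, and in 25 and 25 of the 117 windows after it, against 20.5% of windows tested called above and 43.5% called below (limma). The 25 of 117 called above after the region are 21.4%, near the share over all windows. Mid S was called above Late S in 103 and 84 windows of these sides, and below it in 0 and 2, against 38.7% of windows tested called above and 26.9% called below (limma).

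Other, lower Early S maxima lay in the flanks. The nearest before the region was at 8627501, where the Early S libraries had 14.5 and 18.1 RPKM, against 5.32 and 5.60 in the Mid S libraries, and 1.18 and 2.24 in the Late S libraries. Its Early S share was 69.4%. Between it and the next maximum, the Early S mean had a minimum of 5.27 ± 0.585 RPKM at 8582501, where Mid S was at 5.72 ± 1.10 (SD, n = 2) and the Early S and Mid S libraries overlapped. Further before, maxima of 15.6 ± 1.27 and 12.4 ± 1.05 RPKM in Early S lay at 8510001 and 8420001.

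After the region, an Early S maximum sat on its edge at 8795001, with 14.6 and 14.0 RPKM, and the next came 250 kb after the summit at 8960001. There Early S had 13.7 and 11.6 RPKM, Mid S 11.7 and 11.4, and Late S 5.76 and 4.91, so Early S and Mid S overlapped. The farthest 50 kb on each side were late or mixed. From 9050001 to 9100000 Early S had 7.70 and 4.83 RPKM, Mid S 7.59 and 7.41, and Late S 8.77 and 10.1. From 8350001 to 8400000 Early S had 5.68 and 5.85 RPKM, Mid S 8.07 and 7.75, and Late S 6.67 and 6.27, with Mid S highest.

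The edges of the rule did not fall on a step in the profile. The first window inside, at 8650001, averaged 13.5 RPKM for Early S, 2.78 for Mid S and 0.927 for Late S, and the nearest window wholly before the region, at 8640001, had 13.4, 3.52 and 1.04. The last window inside, at 8790001, had 12.7, 5.96 and 2.19 RPKM, and the nearest wholly after it, at 8800001, had 13.3, 6.15 and 2.37.

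The region was ranked among 654 other segments of 150 kb, laid end to end on X, 2L, 3L, 3R and 4 outside the region and the 300 kb on each side, as a description. Its Early S mean of 16.1 RPKM was exceeded by 31 segments, and its Late S mean of 1.91 RPKM was above that of 7 segments. Early S minus Late S, 3.08 in the region, was exceeded in 2 segments and ran from -3.54 to 3.45 with a median of -0.06. Early S minus Mid S, 1.81 in the region, was also exceeded in 2 segments, and Mid S minus Late S, 1.27 in the region, in 10. The summed label of 22.6 RPKM was ordinary, with 426 segments above it and a median of 24.8.

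**Figure D5:**
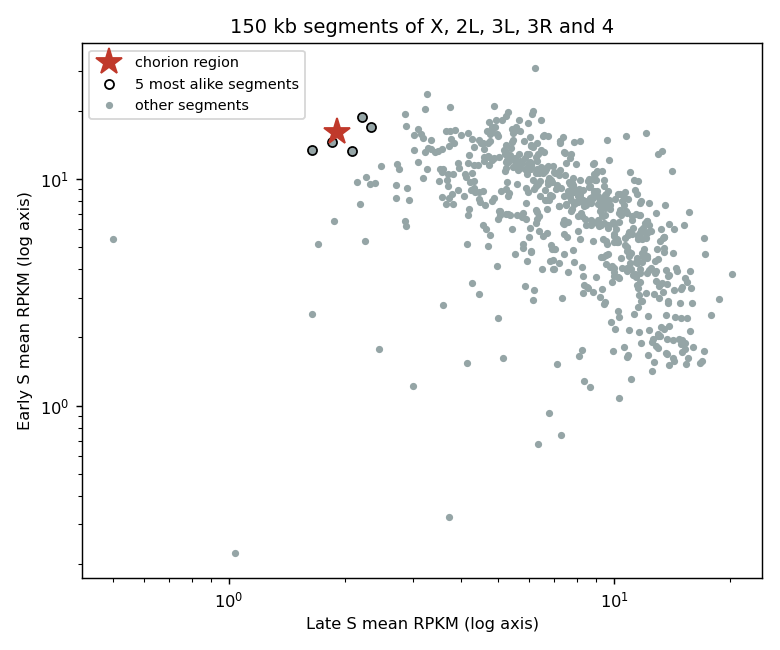
Early S mean RPKM against Late S mean RPKM (both log axes) of 150 kb segments of X, 2L, 3L, 3R and 4, with the chorion region as a star and the 5 segments most like it circled. The region, at 16.1 RPKM in Early S and 1.91 RPKM in Late S, lies at the upper left, where Early S is high and Late S low.

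The segments most like the region were sought by the root mean square difference of log2 mean RPKM over the 6 libraries. The nearest, with 0.13, was the first 150000 bases of 2L, at the tip of that arm. Its values were 14.0 and 15.1 RPKM for the Early S libraries, 4.99 and 5.07 for the Mid S libraries, and 1.59 and 2.10 for the Late S libraries. The segment of X at 2850001 to 3000000 followed with 0.19, where Early S had 12.2 and 14.3 RPKM and Late S 1.86 and 2.31. The other 3 lay on 3L, at 11250001 to 11400000 (0.21), 10650001 to 10800000 (0.24) and 17850001 to 18000000 (0.29). Their Early S minus Late S differences were 3.11, 3.04 and 2.89. The 5 segments nearest in level by this measure thus lay on 2L, X and 3L. No threshold of likeness was set.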

How the data were processed

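The deposited files give RPKM per window, per the file headers, for each library and, in 3 further files, for the replicates of a gate combined. Aligner, build, read filters and any input correction: not given in the sources used here. In 100% of full windows the RPKM came out as whole reads (tolerance 0.02 reads), which gave library totals and reads per window. The combined files hold the mean of the replicates weighted by their reads and served only to place the peak.

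The 2466 windows listed at 0 in every library were dropped and the 53434 others fitted on the log2(RPKM + 0.0341) scale, the pseudocount being the lowest value above 0, so fold changes of low windows are understated. limma 3.58.1 in R 4.3.3 (lmFit, eBayes with trend) fitted the 3 gates to all 6 libraries, on 3 residual degrees of freedom and 10.7 from the prior. Calls are two-sided at a Benjamini-Hochberg adjusted p under 0.05 over all windows, and the fit was tested on simulated data. Region values are log2 of the mean RPKM, with no pseudocount. Local maxima and minima of the Early S mean are the highest or lowest within 25 kb on each side. The other steps used SciPy 1.17.1, pandas 2.3.3 and NumPy 2.4.6 in Python 3.11.15, and figures used matplotlib 3.10.9.

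The rule for what the text names covers the 4 genes and their neighbours, the extreme windows of the region, the windows at its edges, Early S maxima and minima, sign changes in the flanks and the 5 most alike segments. The shoulder at 8672501, the windows not called and the windows ranked above the region were chosen after their values were seen. The region and these lists were chosen with earlier results of these data known. The labels do not say that replicates came from separate cultures, and the p-values may reflect technical spread between libraries alone. For Mid S replicate 1 the gate was read from the title. Alternatives tried were the pseudocount, a filter on low values, quantile and median scaling, windows that share no reads, other summaries, bounds and flanks, a replicate block and leaving out each library.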

Additional observations from a re-analysis of the deposited data

How the results depend on the processing

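With all 6 libraries kept, Early S over Late S was called in 100% of the region's windows, against 37.5% to 41.3% of windows tested. This held under each alternative, 1 of which covers only the 15 windows that share no reads. Leaving out 1 library gave median differences of 2.95 to 3.3. Early S had the highest mean in 57 of 57 windows with median and with quantile scaling. Leaving out 1 library could not change this, since both Early S libraries lay above all other libraries in each window. The share over all windows was not computed for this count. Early S over Mid S was also called in 100% except on leaving out a library of either gate, which gave 75.4% to 89.5% of windows. Mid S over Late S, at 94.7%, gave 82.5% to 100% under other settings and 61.4% to 86.0% when a library was left out, lowest without Mid S replicate 2. Over all windows tested and with all 6 libraries kept, Early S over Mid S was called in 18.3% to 31.2%. Mid S over Late S was called in 32.1% to 42.9%. Leaving out a library lowered the share over all windows wherever it lowered that of the region. Loss of power and a change in the region cannot be told apart there. With a replicate block in the fit, 100%, 100% and 98.2% of the region's windows were called in the 3 comparisons. The shares over all windows tested were then 37.9%, 21.3% and 39.6%. Same-numbered libraries deviated together with r of -0.0101 (Early S and Mid S), 0.0325 (Early S and Late S) and 0.212 (Mid S and Late S) across 13365 windows. The numbers were not taken as pairs in the main fit, although the Mid S and Late S libraries shared some deviation. The Early S minus Late S values of the region and of its ratios to the sides before and after, 3.08, 1.74 and 2.52, are the same with the replicate block, whose smallest possible p is 0.0556 (exact permutation). Leaving out 1 library gave 2.93 to 3.23, 1.67 to 1.80 and 2.37 to 2.67. Without a Mid S library the smallest possible p is 0.0667 (exact permutation), so neither p bears on stability. Placed by the Early S minus Late S difference instead of Early S RPKM, the peak window starts at 8655001, where the Late S mean of the region is lowest. Late S values rest on as few as 9 reads per window, which limits their precision.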

Other observations

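Replicates differed in one direction in the region. Replicate 2 was above replicate 1 in 52 of 57 windows for Early S, 43 of 57 for Mid S and 45 of 57 for Late S, against 43.5%, 51.5% and 54.5% of all windows tested. Over the 15 windows that share no reads the ratio of replicate 2 to replicate 1 was 1.16 for Early S, 1.12 for Mid S and 1.24 for Late S. These windows are neighbours, the ratios were computed after the profile was seen, and no test was run on them.

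Low values in all gates together recurred in the flanks, as at 8780001 in the region. At 8475001 the summed label was 3.04 RPKM with an Early S share of 47.2%, and at 9067501 it was 5.85 RPKM with an Early S share of 19.7%. Mappability, GC content and copy number of these windows were not tested.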
